A study of Mus musculus with 25 samples.

Results

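The genes described here are the nuclear genes for proteins of the mitochondrial ribosome, taken as every gene of the deposited expression table whose symbol is Mrpl or Mrps followed by a number and at most 1 letter. There were 78 such genes among 13266, and all of them passed the filter on low values that left 13252 genes to test. They were measured by RNA-seq of total RNA from peritoneal macrophages of untreated mice at day 0 of the labels, with no stimulation given. The 6 genotypes were SAMHD1, MDA5 DKO (4 libraries), SAMHD1, RIG-I DKO (4), SAMHD1 KO (4), MDA5 KO (4), RIG-I KO (4) and WT (5). A DKO, or double knockout, lacks both named genes, and both double knockouts are written without the comma from here on. SAMHD1 is an enzyme that breaks down deoxynucleotide triphosphates, MDA5 (gene Ifih1) and RIG-I (gene Ddx58) are cytosolic receptors for viral or misplaced RNA, and the series title ties SAMHD1 deficiency to MDA5 activation through cGAS/STING. The titles of 2 of the 4 SAMHD1 KO samples call the line DEL, and the columns cannot be matched to single titles. The labels give neither the strain, age and sex of the mice nor how the alleles were made. Nor do they state whether libraries of 1 genotype are different animals, so a p-value here reflects how far these samples spread, which may be technical. Libraries are numbered within a genotype by column order, which is a name and does not pair them.

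Mitochondria keep their own ribosome, which makes the few proteins still encoded by mitochondrial DNA, all of them subunits of the oxidative phosphorylation complexes. Its ribosomal RNAs are transcribed in the organelle, but its proteins are encoded in the nucleus, made on cytosolic ribosomes and imported. Part of them descend from bacterial ribosomal proteins, and the rest were added during the evolution of mitochondria. Of the 78 genes, 51 encode proteins of the large subunit, which forms peptide bonds, and 26 proteins of the small subunit, which reads the messenger RNA. Mrps18a and Mrps30 are counted in the large subunit, where their proteins sit despite their names. The last gene, Mrps36, kept a ribosomal name but is now known to encode a subunit of the 2-oxoglutarate dehydrogenase complex of the citric acid cycle. The genes lie on 17 chromosomes, with 11 on chromosome 11, 8 on chromosome 17 and 7 on chromosome 6, and they are short, with a median summed exon length of 1.38 kb against 3.08 kb for all genes (GENCODE vM21, GRCm38).

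Depth ranged from 25886469 to 39590589 reads in listed genes per library, of which the 78 genes took between 0.118 and 0.193%. Samhd1 had 1069 to 4952 normalized counts in the 12 SAMHD1-deficient libraries and 6486 to 13120 in the other 13, and the 2 highest values among the deficient ones, 4767 in SAMHD1 KO library 2 and 4952 in SAMHD1 MDA5 DKO library 3, stood above the other 10 (at most 1852). Ifih1 had at most 14.9 counts in MDA5-deficient libraries and at least 1412 elsewhere, and Ddx58 at most 303.6 in RIG-I-deficient libraries and at least 1109.8 elsewhere. The libraries farthest from the rest, called the pair apart, were SAMHD1 KO library 2 and WT library 3, at 63.9 and 50.9 on the first principal component of all genes (20.3% of the variance), with the others between -25.8 and 20.7, and they carry the last 2 codes in the run of library codes. All 10 macrophage markers were detected in every library, with at least 3523 counts for Gata6, the factor that defines large peritoneal macrophages. The counts of called genes and the median fold changes of the main comparisons are also given without WT library 3 and SAMHD1 KO library 2, as are, chosen after seeing the data, the correlations, the larger gene sets and the exon length classes. Exons of 26 of the 78 genes overlap those of another annotated gene, and for these reads may be shared.

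Promoters are shown first for the genes on which the later comparisons turn. Mrpl21 and Mrps14 were the genes called in both double knockouts against SAMHD1 KO, Mrpl33 was the most abundant, and Mrps2 was the one gene called lower. Each sequence runs from 250 bases before the RefSeq transcription start to 15 bases after it (GRCm38.p6, plus strand), at chr19:3282792-3283056, chr5:31613701-31613965, chr1:160194965-160195229 and chr2:28467816-28468080. Capitals mark a match to CCGGAAG, the letters bound by ETS factors such as GABP, on either strand, or to the CCAAT box.
Mrpl21: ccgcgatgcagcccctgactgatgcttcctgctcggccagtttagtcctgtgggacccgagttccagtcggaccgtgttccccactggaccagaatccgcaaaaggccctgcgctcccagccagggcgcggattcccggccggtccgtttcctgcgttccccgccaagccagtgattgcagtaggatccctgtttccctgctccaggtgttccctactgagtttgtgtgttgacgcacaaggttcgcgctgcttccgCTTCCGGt
Mrpl33: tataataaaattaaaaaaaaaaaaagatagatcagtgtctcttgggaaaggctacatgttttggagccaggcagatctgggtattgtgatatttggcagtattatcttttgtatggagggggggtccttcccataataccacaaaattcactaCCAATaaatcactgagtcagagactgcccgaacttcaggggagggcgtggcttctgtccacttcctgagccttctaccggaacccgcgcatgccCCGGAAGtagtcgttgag
Mrps14: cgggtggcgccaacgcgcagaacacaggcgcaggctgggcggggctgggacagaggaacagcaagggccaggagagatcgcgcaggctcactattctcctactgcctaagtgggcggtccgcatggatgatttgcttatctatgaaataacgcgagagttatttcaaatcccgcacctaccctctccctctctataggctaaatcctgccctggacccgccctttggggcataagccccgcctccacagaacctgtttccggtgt
Mrps2: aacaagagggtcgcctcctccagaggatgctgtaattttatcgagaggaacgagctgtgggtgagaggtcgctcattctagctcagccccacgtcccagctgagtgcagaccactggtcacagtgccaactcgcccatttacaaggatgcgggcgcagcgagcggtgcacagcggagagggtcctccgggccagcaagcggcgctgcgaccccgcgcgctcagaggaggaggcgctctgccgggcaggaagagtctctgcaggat
Mrpl21 held the ETS letters on the minus strand just after its start, Mrpl33 held them on the plus strand across its start with a CCAAT box further upstream, and the promoters of Mrps14 and Mrps2 held none of the 5 motifs searched. The search covered 69 of the 78 genes, those with a RefSeq promoter of 300 bases (250 before and 50 after the start), on both strands, and although CCGGAAG and AAGATGG can share the letters AAG, they did so in 0 of these promoters. TGCGCA, the core of the site of NRF1, a regulator of nuclear genes for mitochondrial proteins, was found in 21 promoters (30.4%), against 15.02% of the promoters of all tested genes. CCGGAAG was found in 25 (36.2%, against 19.4%) and AAGATGG, the core of the YY1 site, in 13 (18.8%, against 7.60%). At least 1 of these 3 was present in 43 of the 69 promoters, with no share over all tested genes to set beside it. TATAAA, the TATA box, was found in 4 (5.80%, against 6.91%) and CCAAT in 27 (39.1%, against 39.5%). A match is a run of letters and not a measured binding site.

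All 78 genes were expressed at moderate levels. Mean normalized counts over the 25 libraries ran from 237 for Mrpl47 to 1890.1 for Mrpl33, with a median of 639, against 548 for all genes. After Mrpl33, the most abundant were Mrpl30 (1421), Mrps15 (1313), Mrpl3 (1298) and Mrpl24 (1296). The lowest after Mrpl47 were Mrpl53 (246), Mrps22 (271), Mrps10 (283) and Mrpl55 (292). Levels of different genes can be compared only per length, and per kb of exon the median was 387 normalized counts.

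Mrpl33, a small protein of the large subunit, was highest per length at 3954 counts per kb, followed by Mrps21 (2384), Mrpl42 (1583), Mrpl52 (1464), Mrpl30 (1460.4) and Mrps15 (1401). Mrpl47, which sits near the tunnel exit, was lowest at 70.4. Genes of the large subunit with a bacterial counterpart had a median of 573 counts per kb (n = 30), those of the large subunit found only in mitochondria 354 (n = 21), those of the small subunit with a bacterial counterpart 364 (n = 16) and those of the small subunit found only in mitochondria 257 (n = 10). The ranges of these 4 classes overlapped, with single genes from 70.4 to 3954, 202 to 1583, 140.5 to 2384 and 118 to 737 counts per kb in the same order.

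**Figure D1:**
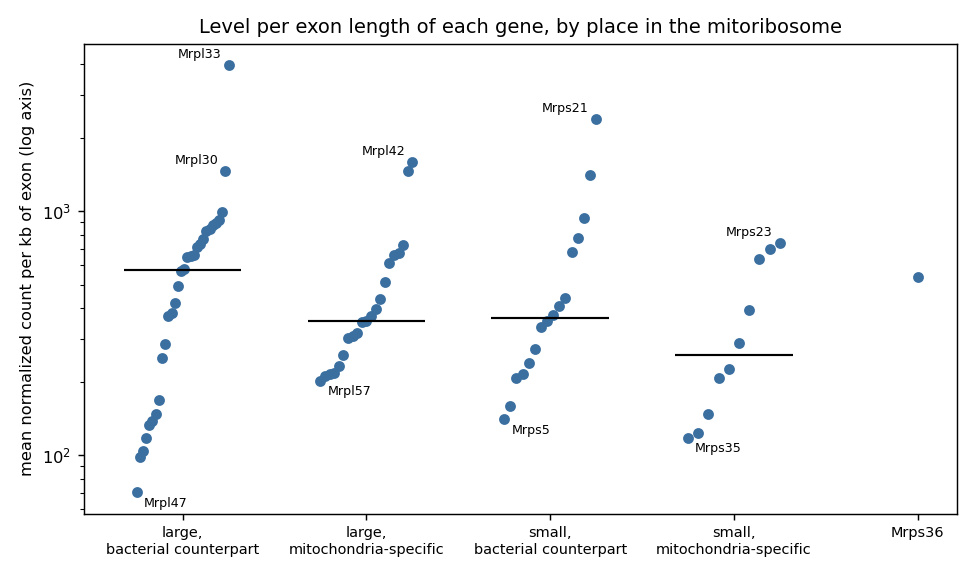
Mean normalized count per kb of exon over 25 libraries for each of the 78 genes (points, log axis), by subunit and origin, with the class median as a bar. Mrpl33 stands at 3954 counts per kb and Mrpl47 at 70.4, and the 4 classes overlap.

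To follow the genes together, a score was taken as the mean of their deposited variance-stabilized values in a library, on a log2 scale. In SAMHD1 MDA5 DKO libraries the score was 9.687, 9.721, 9.522 and 9.741, in SAMHD1 RIG-I DKO libraries 9.653, 9.740, 9.594 and 9.629 and in SAMHD1 KO libraries 9.435, 9.114, 9.366 and 9.396. Every library of either double knockout lay above every SAMHD1 KO library. The mean score was 9.67 ± 0.10 in SAMHD1 MDA5 DKO, 9.65 ± 0.062 in SAMHD1 RIG-I DKO and 9.33 ± 0.15 in SAMHD1 KO (SD, n = 4 each), and the differences from SAMHD1 KO were 0.34 ± 0.088 for SAMHD1 MDA5 DKO and 0.33 ± 0.079 for SAMHD1 RIG-I DKO (SE). Both comparisons use the same SAMHD1 KO libraries.

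In MDA5 KO libraries the score was 9.711, 9.569, 9.460 and 9.474, in RIG-I KO libraries 9.687, 9.647, 9.577 and 9.575 and in WT libraries 9.469, 9.430, 8.965, 9.574 and 9.458. The RIG-I KO libraries lay just above the highest WT library, which was library 4, and 3 of the 4 MDA5 KO libraries lay below WT library 4. The mean score was 9.55 ± 0.12 for MDA5 KO, 9.62 ± 0.055 for RIG-I KO (SD, n = 4 each), and 9.38 ± 0.24 for WT (SD, n = 5), and the differences from WT were 0.17 ± 0.12 and 0.24 ± 0.11 (SE). The score of SAMHD1 KO was lower than that of WT by less than the spread, at -0.05 ± 0.13. The variance-stabilized scale compresses differences at these counts: as means of log2(normalized count + 1), the differences from SAMHD1 KO were 0.40 for SAMHD1 MDA5 DKO and 0.39 for SAMHD1 RIG-I DKO, and those from WT 0.21 for MDA5 KO and 0.29 for RIG-I KO.

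WT library 3 and SAMHD1 KO library 2, the libraries apart from the rest, had the lowest scores of all. They also held the lowest value of most single genes: 55 of the 78 genes were lowest in WT library 3 and 14 in SAMHD1 KO library 2. Without the pair, the score differences were 0.27 for SAMHD1 MDA5 DKO and 0.26 for SAMHD1 RIG-I DKO against SAMHD1 KO, 0.071 for MDA5 KO and 0.14 for RIG-I KO against WT, and -0.084 for SAMHD1 KO against WT. In order of mean score the genotypes ran SAMHD1 MDA5 DKO, SAMHD1 RIG-I DKO, RIG-I KO, MDA5 KO, WT and SAMHD1 KO, and the libraries of each genotype overlapped those of the next in this order. In bulk RNA, fewer cells of a type and less RNA per cell cannot be told apart.

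**Figure D2:**
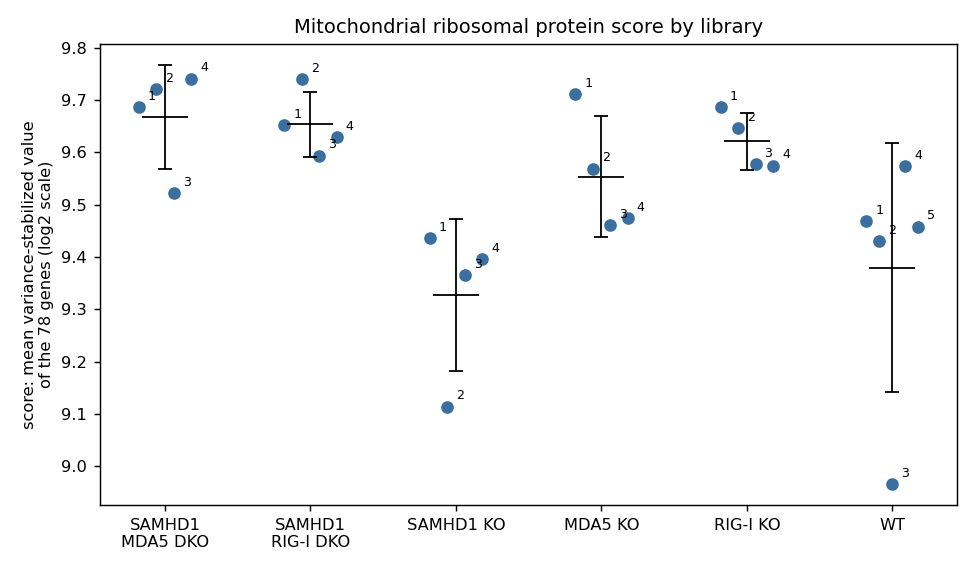
Score of the 78 genes (mean variance-stabilized value, log2 scale) in each library (points, numbered by column order) with the mean and SD of each genotype (bars). All libraries of both double knockouts lie above all SAMHD1 KO libraries, and WT library 3 (8.96) and SAMHD1 KO library 2 (9.11) lie lowest.

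SAMHD1 RIG-I DKO against SAMHD1 KO asks what differs with RIG-I loss in cells that lack SAMHD1. In this and the later comparisons, any difference of mouse line or preparation between genotypes cannot be told apart from loss of the gene. Here 34 of the 78 genes were higher in SAMHD1 RIG-I DKO at an adjusted p under 0.05 (limma, adjusted over all genes tested), where 5.62% of all genes tested were higher, and 1 gene, Mrps2, was lower, where 4.85% were lower. The median log2 fold change of the 78 genes was 0.39, against -0.035 for all genes, and 71 of the 78 values were positive. The libraries of the 2 genotypes did not overlap for 47 genes higher in SAMHD1 RIG-I DKO (10.4% of all genes) and for 2 that were lower, Mrps2 and Mrpl38 (8.28% of all genes). Of the large subunit, 25 of 51 genes were higher (median 0.40), and of the small subunit 8 of 26 (median 0.35). By origin the called genes were 13 of 30 with a bacterial counterpart and 12 of 21 found only in mitochondria in the large subunit, and 6 of 16 and 2 of 10 in the small subunit.

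The largest change was in Mrpl14, a conserved protein on the face of the large subunit that meets the small one (ENSMUSG00000023939, chromosome 17, 45686322 to 45698495, + strand). Mrpl14 had 908, 939.8, 748 and 737 normalized counts in SAMHD1 RIG-I DKO libraries and 488, 242, 555 and 356 in SAMHD1 KO libraries. The lowest SAMHD1 RIG-I DKO library was above the highest SAMHD1 KO library, and SAMHD1 KO library 2 was the lowest of all. The log2 fold change of Mrpl14 was 1.08 ± 0.30 (SE, limma adjusted p = 0.0279).

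Mrpl41, a large-subunit protein found only in mitochondria, followed with 347, 436, 407 and 367 counts in SAMHD1 RIG-I DKO libraries and 272, 148, 246 and 185 in SAMHD1 KO libraries. The groups did not overlap, and the log2 fold change was 0.90 ± 0.29 (adjusted p = 0.0485). Mrpl13 (0.83), Mrpl57 (0.82), Mrpl33 (0.78), Mrpl54 (0.77), Mrpl20 (0.73) and Mrpl53 (0.70) were next among the large-subunit genes called. The residual SD between libraries of 1 genotype was highest for Mrpl14 (0.45, log2), Mrpl41 (0.44) and Mrpl57 (0.36), with a median of 0.20 over the 78 genes.

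Mrpl21, a conserved large-subunit protein whose promoter is shown above (ENSMUSG00000024829, chromosome 19, 3282901 to 3292837, + strand), had the smallest p of the 78 genes. It had 597, 651, 598 and 581 counts in SAMHD1 RIG-I DKO libraries and 397, 304, 426 and 389.7 in SAMHD1 KO libraries. All SAMHD1 RIG-I DKO libraries were above all SAMHD1 KO libraries, with a log2 fold change of 0.69 ± 0.12 (adjusted p = 0.00466). Exons of Mrpl21 overlap those of Ighmbp2 on the opposite strand, and no source used here says whether reads were counted by strand.

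Mrpl33, the most abundant of the genes (ENSMUSG00000106918, chromosome 5, 31596935 to 31664384, + strand), had 2325, 2698, 2369 and 2175 counts in SAMHD1 RIG-I DKO libraries and 1519.8, 1319.9, 1413 and 1322 in SAMHD1 KO libraries. The groups were well separated, and the log2 fold change was 0.78 ± 0.19 (adjusted p = 0.0199). Its annotated exons overlap those of Gm43809 on the same strand, so the 2 genes may share reads.

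Mrpl24, which sits where the new peptide leaves the ribosome, had 1424, 1693, 1469 and 1438 counts in SAMHD1 RIG-I DKO libraries and 1090.2, 1379, 1031 and 1058 in SAMHD1 KO libraries. Here SAMHD1 KO library 2 was not low but the highest of its genotype, and the groups still did not overlap (0.41 ± 0.11, adjusted p = 0.0228). The other large-subunit genes called were Mrpl48 (0.68), Mrpl11 (0.63), Mrpl46 (0.63), Mrpl27 (0.56), Mrpl50 (0.56), Mrpl52 (0.56), Mrpl1 (0.51), Mrpl58 (0.50), Mrpl42 (0.49), Mrpl19 (0.48), Mrpl18 (0.46), Mrpl23 (0.45), Mrpl44 (0.39), Mrpl9 (0.36) and Mrpl39 (0.25), each value being a log2 fold change. Mrpl58 is a peptidyl-tRNA hydrolase that frees stalled ribosomes, Mrpl11 belongs to the stalk base where translation factors bind, and Mrpl44 carries an RNase III-like fold.

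In the small subunit the largest change was in Mrps18c. It is 1 of 3 paralogs of the bacterial protein S18, of which Mrps18c and Mrps18b sit in the small subunit and Mrps18a in the large one. Mrps18c had 875, 1057, 878 and 812 counts in SAMHD1 RIG-I DKO libraries and 638, 379.7, 591 and 424 in SAMHD1 KO libraries, without overlap (0.86 ± 0.19, adjusted p = 0.014). Its exons overlap those of Gm43511 on the same strand.

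Neither of the other paralogs passed. Mrps18a had 847, 867, 788 and 737 counts in SAMHD1 RIG-I DKO libraries and 671, 585, 631 and 685 in SAMHD1 KO libraries, again without overlap (0.33 ± 0.13, adjusted p = 0.092). Mrps18b had 356, 395, 420.1 and 429 counts in SAMHD1 RIG-I DKO libraries and 475, 410.4, 313 and 512 in SAMHD1 KO libraries, all within the range of SAMHD1 KO (-0.08 ± 0.13, adjusted p = 0.766). The differences between the paralogs were not themselves tested.

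Mrps14, a conserved protein of the head of the small subunit (ENSMUSG00000058267, chromosome 1, 160195215 to 160202170, + strand), had 722, 858, 769 and 766 counts in SAMHD1 RIG-I DKO libraries and 606, 425, 541 and 539 in SAMHD1 KO libraries. The groups did not overlap (0.57 ± 0.12, adjusted p = 0.0118). Mrps22, found only in mitochondria and mutated in human mitochondrial disease, had 326, 364, 287 and 367 counts in SAMHD1 RIG-I DKO libraries and 249.9, 153, 216 and 247 in SAMHD1 KO libraries (0.65 ± 0.14, adjusted p = 0.013). The other small-subunit genes called higher were Mrps33 (0.67), Mrps28 (0.67), Mrps16 (0.58), Mrps24 (0.54) and Mrps17 (0.34). Mrps36, of the 2-oxoglutarate dehydrogenase complex, had 462, 415, 402 and 437 counts in SAMHD1 RIG-I DKO libraries and 354, 254, 325 and 286 in SAMHD1 KO libraries, and was also higher (0.50 ± 0.13, adjusted p = 0.0257).

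Mrps2 went the other way (ENSMUSG00000035772, chromosome 2, 28468066 to 28471178, + strand). This conserved small-subunit protein had 456, 506, 495 and 499 counts in SAMHD1 RIG-I DKO libraries and 624, 573, 542 and 605 in SAMHD1 KO libraries. The highest SAMHD1 RIG-I DKO library was below the lowest SAMHD1 KO library, and the gene fell by 0.26 on the log2 scale (SE 0.071, adjusted p = 0.0275). Mrpl38, a large-subunit protein found only in mitochondria, had 827, 772, 774 and 837 counts in SAMHD1 RIG-I DKO libraries and 999.8, 900.4, 868 and 879 in SAMHD1 KO libraries, without overlap, but did not pass (-0.18 ± 0.073, adjusted p = 0.103). Mrpl37 (-0.08), Mrps18b (-0.08), Mrps5 (-0.06), Mrpl4 (-0.04) and Mrps27 (-0.0084) were the other genes with a negative value, and none passed.

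The count of 34 depends on single libraries. It was 43 without WT library 3 and SAMHD1 KO library 2, when 2123 genes were called in all, with a median log2 fold change of 0.31 in place of 0.39. A count of 7 was left without the libraries of intermediate Samhd1 (SAMHD1 KO library 2 and SAMHD1 MDA5 DKO library 3), when 554 genes were called in all, and between 3 and 51 when each of the 25 libraries was left out in turn. The low counts came without SAMHD1 RIG-I DKO library 2 (3 genes, Mrpl21, Mrps14 and Mrps22), SAMHD1 KO library 2 (6), SAMHD1 RIG-I DKO library 1 (9), SAMHD1 RIG-I DKO library 4 (10) and SAMHD1 KO library 4 (22). Mrpl21 and Mrps14 passed in each of the 33 other fits that were run, at log2 fold changes from 0.57 to 0.75 for Mrpl21 and from 0.47 to 0.64 for Mrps14. Without WT library 3 and SAMHD1 KO library 2, Mrpl14 had a log2 fold change of 0.85, Mrpl41 of 0.74, Mrpl33 of 0.75, Mrps18c of 0.73 and Mrps2 of -0.27, and all of these passed. Mrps2 did not pass when SAMHD1 RIG-I DKO library 1, 2 or 4 or SAMHD1 KO library 1 or 4 was left out.

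SAMHD1 MDA5 DKO against SAMHD1 KO asks the same of MDA5. Mrpl21 and Mrps14 were higher in SAMHD1 MDA5 DKO, 2 of the 78 genes, where 0.0528% of all genes tested were higher, and none was lower. The median log2 fold change of the 78 genes was 0.42, against -0.033 for all genes, 77 of the 78 values were positive, and 66 had an unadjusted p under 0.05, against 23.8% of all genes. The libraries did not overlap for 45 genes higher in SAMHD1 MDA5 DKO, against 7.73% of all genes, and for 0 that were lower, against 3.5%.

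Mrpl21 had 642, 556, 501 and 607 counts in SAMHD1 MDA5 DKO libraries, all above the 397, 304, 426 and 389.7 of SAMHD1 KO libraries (0.61 ± 0.12, adjusted p = 0.0391). Mrps14 had 815, 818, 679.8 and 878 counts in SAMHD1 MDA5 DKO libraries, all above the 606, 425, 541 and 539 of SAMHD1 KO libraries (0.60 ± 0.12, adjusted p = 0.0451). Library 3 was the lowest of the SAMHD1 MDA5 DKO libraries for both genes.

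Larger fold changes did not pass. Mrpl14 had 816, 836, 672 and 916 counts in SAMHD1 MDA5 DKO libraries against 488, 242, 555 and 356 in SAMHD1 KO libraries, without overlap (1.04 ± 0.30, adjusted p = 0.083). Mrpl57, a large-subunit protein found only in mitochondria, had 631, 766, 554 and 901 counts in SAMHD1 MDA5 DKO libraries against 439.6, 266, 518 and 374 in SAMHD1 KO libraries (0.85 ± 0.23, adjusted p = 0.0804). Mrpl33 had 1578, 2009, 1547 and 2645 counts in SAMHD1 MDA5 DKO libraries, the lowest of which was only just above the highest SAMHD1 KO library at 1519.8 (0.45 ± 0.19, adjusted p = 0.16). Mrps5 (-0.02), Mrpl38 (0.00035) and Mrps27 (0.02) had the lowest log2 fold changes.

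The number called in this comparison moved widely with the libraries used. It was 27 without WT library 3 and SAMHD1 KO library 2, when 534 genes were called in all, 58 without WT library 3 alone, when 1466 were called, and 0 without the libraries of intermediate Samhd1. With SAMHD1 KO library 2 left out alone it was 0, and it was at most 2 when any library other than WT library 3 was left out, with Mrpl21 and Mrps14 both called in 6 of those 24 fits. Without WT library 3 and SAMHD1 KO library 2 the log2 fold changes were 0.51 for Mrpl21 and 0.50 for Mrps14. The median log2 fold change stayed between 0.32 and 0.48 over all of these.

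**Figure D3:**
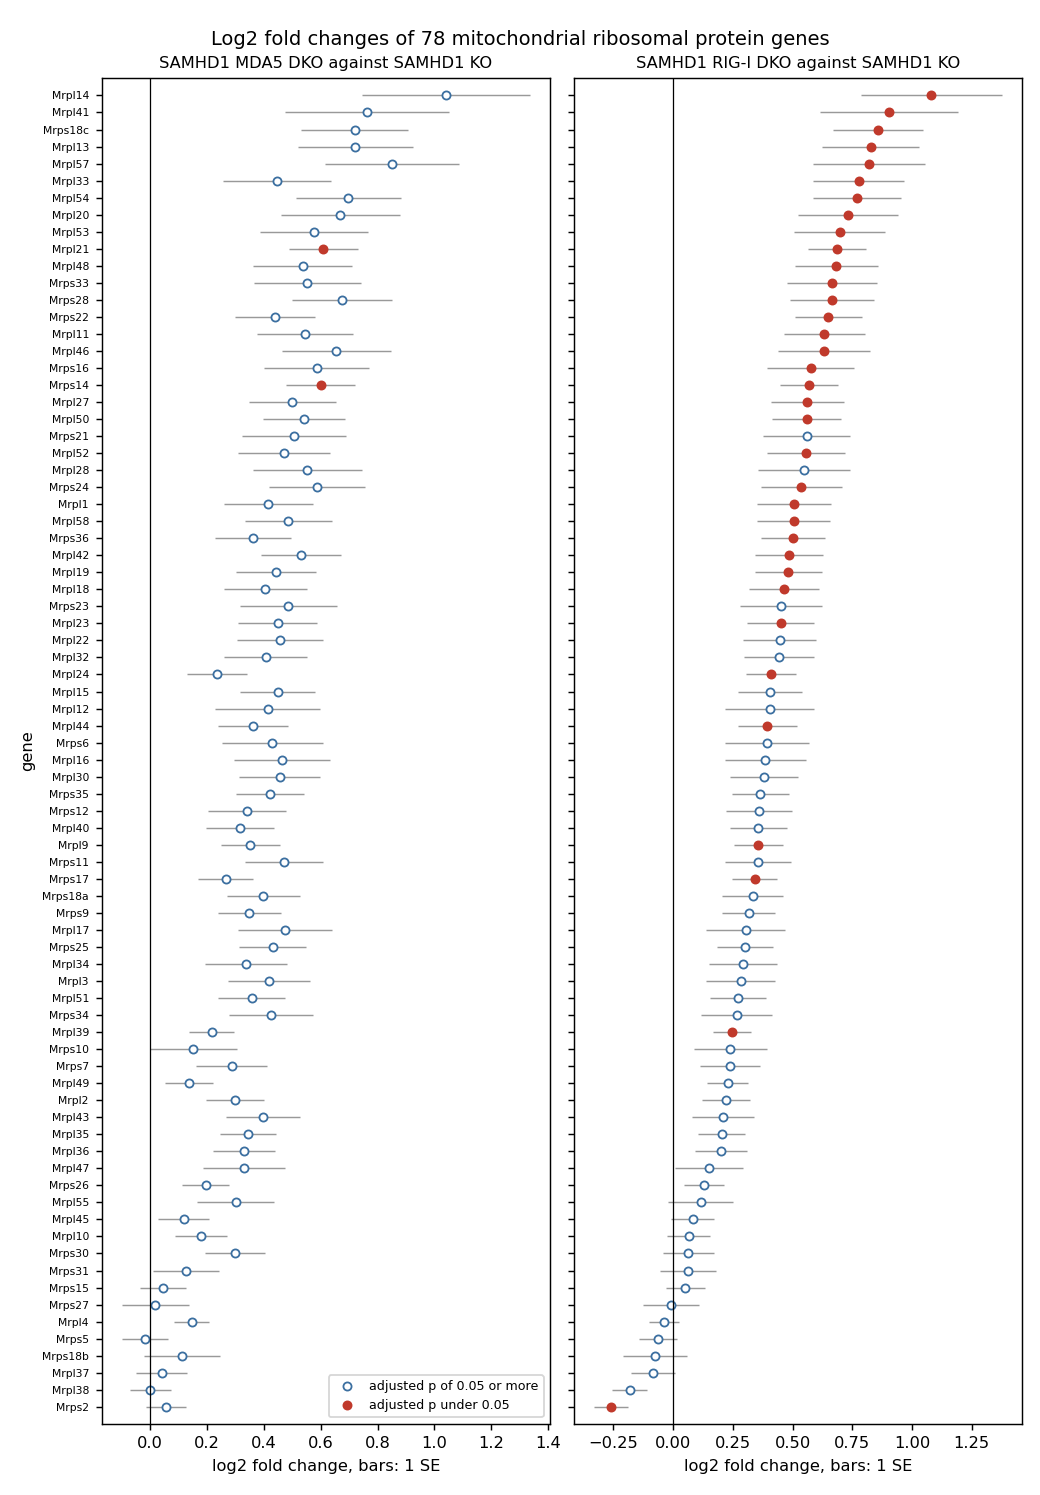
Log2 fold changes with SE of the 78 genes in SAMHD1 MDA5 DKO against SAMHD1 KO (left) and SAMHD1 RIG-I DKO against SAMHD1 KO (right), in the order of the right panel. Filled points have an adjusted p under 0.05 (2 genes on the left, 35 on the right), and Mrps2 is the one filled point below 0.

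Against each other the double knockouts gave no call: 0 of 78 genes passed by limma and 0 by voom, against 0.158% of all genes by limma, 4 had an unadjusted p under 0.05 (8.72% of all genes), and the median log2 fold change was 0.018. The gene nearest to the threshold was Mrps2, with 646, 602, 582 and 604 counts in SAMHD1 MDA5 DKO libraries and 456, 506, 495 and 499 in SAMHD1 RIG-I DKO libraries, without overlap (0.32 ± 0.071, adjusted p = 0.0879). Mrps2 passed when WT library 3 was left out, alone or with SAMHD1 KO library 2. Mrps30, Mrpl4 and Mrpl38 were the other genes whose libraries did not overlap here, all higher in SAMHD1 MDA5 DKO (5.25% of all genes), and Mrpl33 had the lowest value at -0.33 ± 0.19.

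RIG-I KO against WT asks what differs with RIG-I loss where SAMHD1 is present, with the same limit on mouse line and preparation. Mrpl33 and Mrpl21 were higher in RIG-I KO, 2 of 78 genes, where 1.25% of all genes tested were higher, and none was lower, where 2.97% were (4.21% were called in either direction). Mrpl33 had 2665, 2661, 2163 and 2221 counts in RIG-I KO libraries and 1534, 1402, 776, 1820.3 and 1430.5 in WT libraries, without overlap and with WT library 3 far below the other WT libraries (0.85 ± 0.18, adjusted p = 0.0163). Mrpl21 had 599.6, 649, 535 and 553 counts in RIG-I KO libraries and 479.7, 461, 312, 446 and 452 in WT libraries, also without overlap (0.45 ± 0.11, adjusted p = 0.031).

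Over the 78 genes the median log2 fold change in RIG-I KO against WT was 0.29, against 0.0029 for all genes, 70 values were positive, 44 had an unadjusted p under 0.05 (24.5% of all genes) and the libraries did not overlap for 19, all higher in RIG-I KO (5.8% of all genes were higher without overlap and 7.15% lower). Mrpl41 had the highest value and did not pass, with 415, 382, 347 and 348 counts in RIG-I KO libraries and 236, 231, 77.7, 301 and 266 in WT libraries (0.87 ± 0.28, adjusted p = 0.0647). Mrpl14 (0.72) did not pass either, and Mrps2 (-0.15), Mrpl45 (-0.07) and Mrpl10 (-0.05) were lowest. Without WT library 3 and SAMHD1 KO library 2, 11 genes were called (2081 of all genes) while the median was 0.15. Leaving out 1 library at a time gave 0 to 20 genes, with 0 without RIG-I KO library 1 or 2, 20 without WT library 4 and 13 without SAMHD1 KO library 2. It gave 6 genes without MDA5 KO library 1, and Mrpl33 alone without RIG-I KO library 3 or 4 or WT library 5. Without WT library 3 and SAMHD1 KO library 2 the log2 fold changes were 0.65 for Mrpl33 and 0.34 for Mrpl21.

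MDA5 KO against WT gave 0 calls by limma (0.0302% of all genes were higher and 0.0377% lower) and 0 by voom, with 9 of 78 genes at an unadjusted p under 0.05, against 5.27% of all genes, and a median log2 fold change of 0.19. Of the 78 values 76 were positive, from Mrpl37 (-0.06) and Mrps5 (-0.05) to Mrpl41 (0.58), Mrpl14 (0.53) and Mrpl33 (0.50). Without WT library 3 and SAMHD1 KO library 2 the median was 0.075. The RIG-I KO and MDA5 KO comparisons share the WT libraries.

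SAMHD1 KO against WT also gave 0 calls by limma (0.0151% of all genes) and 0 by voom, and 0 of 78 genes had an unadjusted p under 0.05, against 4.76% of all genes. The median log2 fold change was -0.054, and single values lay between -0.26 for Mrps18c and 0.12 for Mrps18b, with SEs from 0.058 to 0.28. The median was 0.0295 when SAMHD1 KO library 2 was left out, and when WT library 3 was left out it was -0.19. Mrpl21, for one, had 397, 304, 426 and 389.7 counts in SAMHD1 KO libraries and 479.7, 461, 312, 446 and 452 in WT libraries. The groups overlapped through WT library 3 alone, and the other 4 WT libraries lay above every SAMHD1 KO library. Mrpl21 is a single gene named for its calls elsewhere, and its difference did not pass here. The share of genes that separate in this way was not counted.

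SAMHD1 loss where a sensor was already missing gave no call either. In SAMHD1 MDA5 DKO against MDA5 KO, 0 of 78 genes passed by limma (0.00755% of all genes) and 0 by voom, 1 had an unadjusted p under 0.05 (3.96% of all genes) and the median log2 fold change was 0.14, with Mrpl14 highest at 0.38 ± 0.30. In SAMHD1 RIG-I DKO, set against RIG-I KO, 0 of 78 passed by limma (0.0604% of all genes were higher) and 0 by voom, 0 had an unadjusted p under 0.05 (3.55% of all genes) and the median was 0.043, with Mrpl14 highest at 0.23 ± 0.30 and Mrps11 lowest at -0.14 ± 0.14.

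Whether the effect of losing a sensor differs with SAMHD1 was tested by an interaction term, the difference of each double knockout from SAMHD1 KO minus that of the sensor knockout from WT. For MDA5 the term passed in 0 of 78 genes, at an unadjusted p under 0.05 in 2, with a median of 0.20, and for RIG-I in 0 of 78, at an unadjusted p under 0.05 in 1, with a median of 0.11. The median ran from 0.109 (without SAMHD1 KO library 2) to 0.336 (without WT library 3) for MDA5, and from 0.0111 to 0.229 without the same libraries for RIG-I, when 1 library was left out at a time. Without both it was 0.235 for MDA5 and 0.157 for RIG-I. No gene of the whole table passed for either term by limma, where 2.78 and 2.83% had an unadjusted p under 0.05, and none of the 78 genes passed by voom. The median SE of the term for a single gene was 0.19, as large as the median MDA5 term, and a difference of that size was not detectable in a single gene. Over all 6 genotypes, the F test called 21 of the 78 genes, where it called 9.87% of all genes tested. Without SAMHD1 RIG-I DKO library 2 it called 7 of the 78, and without WT library 3 it called 43.

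**Figure D4:**
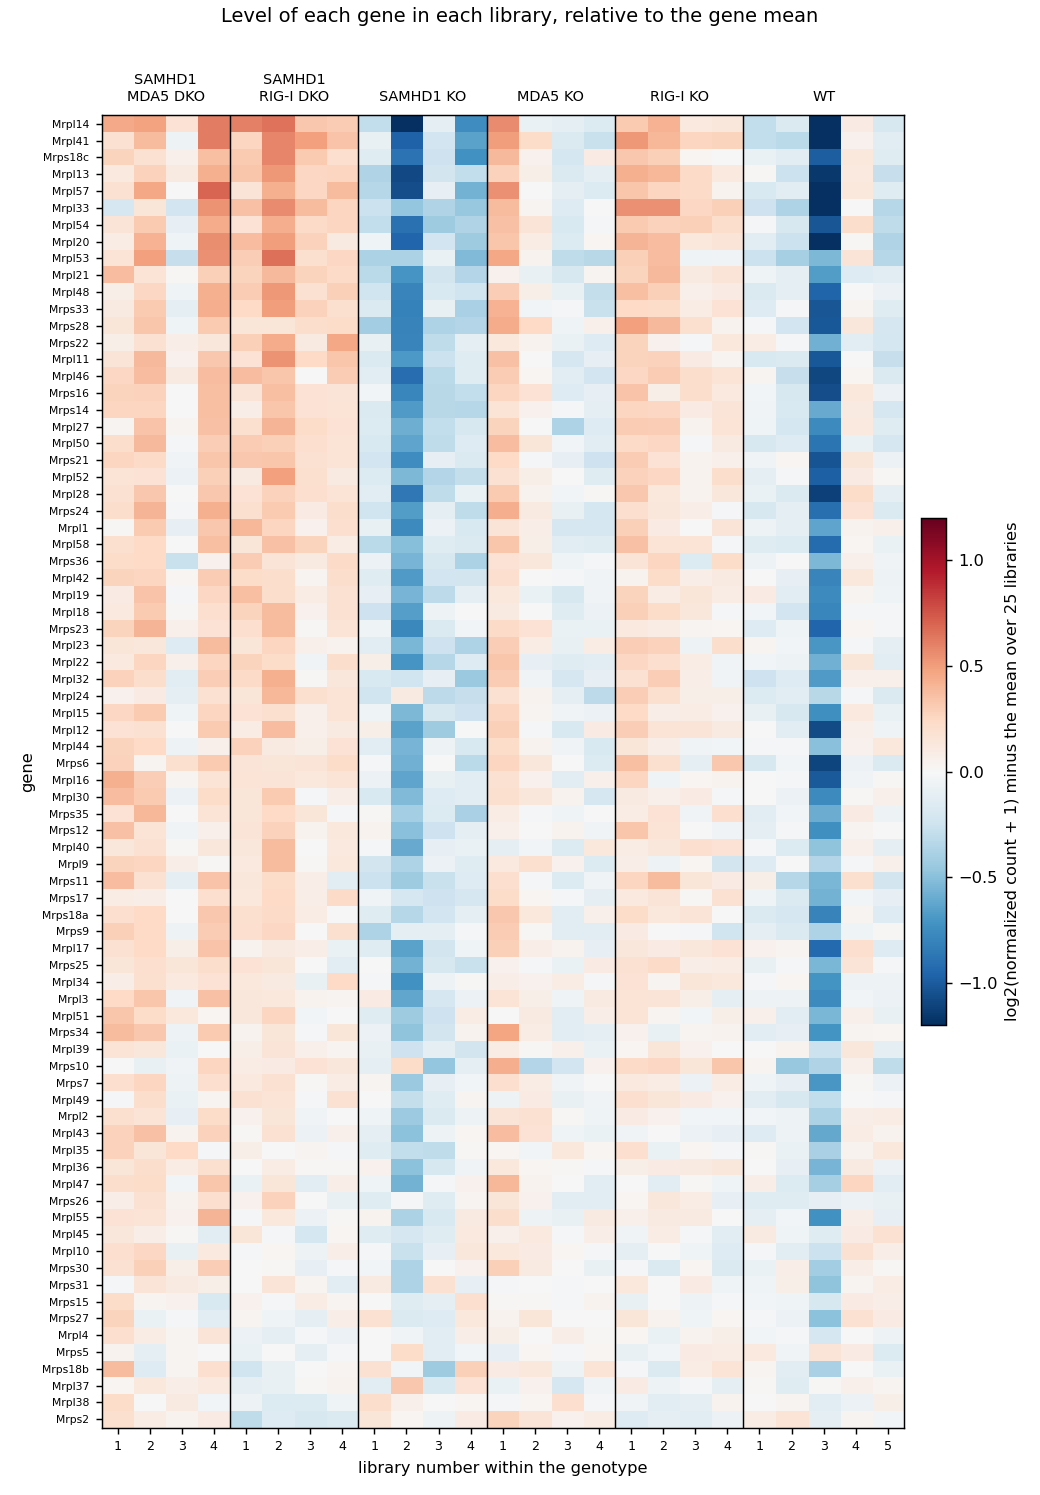
Log2(normalized count + 1) of each of the 78 genes (rows, in order of the log2 fold change in SAMHD1 RIG-I DKO against SAMHD1 KO) in each library (columns), minus the mean of that gene over the 25 libraries. WT library 3 and SAMHD1 KO library 2 are blue over most rows, and the bottom rows, down to Mrps2, show little of this, with colours ending at 1.2 in either direction.

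The genes moved together from library to library within a genotype. Pairs of the 78 genes had a median Pearson correlation of 0.72 between their deviations from the genotype means over 25 libraries, against 0.021 for pairs among 8673 genes at or above the level of the lowest of the 78. Without WT library 3 and SAMHD1 KO library 2 these medians were 0.46 and 0.0036 over 23 libraries. The points share library, depth and RNA preparation, and the values are a description. Against the mean of the other genes, 68 of the 78 correlated above 0.5, led by Mrps7 (0.97), Mrpl15 (0.97) and Mrps16 (0.97). Over the 23 libraries without the pair apart, 60 of the 78 correlated above 0.5, with Mrps7 at 0.90, Mrpl15 at 0.91 and Mrps16 at 0.87.

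A few genes stood outside this. Mrps5, a conserved protein near the decoding site, correlated at -0.49 with the rest, Mrpl37 at -0.21 and Mrpl38 at 0.098. Their values depended on the pair apart: over the other 23 libraries Mrps5 correlated at -0.12, Mrpl37 at 0.20 and Mrpl38 at -0.37, and Mrpl35 (-0.12) and Mrps15 (-0.10) were also below 0. Mrps5 had 648, 584, 642 and 631 counts in SAMHD1 MDA5 DKO libraries, 593, 632, 581 and 623 in SAMHD1 RIG-I DKO libraries, 629, 731, 571 and 614 in SAMHD1 KO libraries, 587, 639, 617 and 640.1 in MDA5 KO libraries, 591, 612, 673 and 670.2 in RIG-I KO libraries and 684, 612, 699.9, 674 and 562 in WT libraries. WT library 3 and SAMHD1 KO library 2, lowest for most of the 78 genes, were the highest of their genotypes for Mrps5. Mrpl4, Mrps2 and Mrpl38 had the smallest residual SD (0.068, 0.082 and 0.090, log2).

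The genes outside the set whose values followed the score most closely over the 25 libraries were Psmb4 (Pearson r of 0.99), Psmb6 (0.99), Uqcr10 (0.99), Elof1, Ndufb9, Hsd17b10, Grpel1, Timm23, Psma2 and Prdx2 (0.98 each). They encode proteasome subunits (Psmb4, Psmb6, Psma2), respiratory chain subunits (Uqcr10, Ndufb9), mitochondrial import and chaperone proteins (Timm23, Grpel1), a mitochondrial dehydrogenase (Hsd17b10), a transcription elongation factor (Elof1) and a peroxiredoxin (Prdx2). Over 23 libraries, without the pair apart, their r lay between 0.95 and 0.97. These correlations share library and depth and carry no p.

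Other genes of mitochondrial translation were examined as lists. In SAMHD1 RIG-I DKO against SAMHD1 KO, 5.62% of all genes tested were higher and 4.85% lower. Proteins of the mitoribosome with other names gave 2 of 5 genes higher in SAMHD1 RIG-I DKO against SAMHD1 KO, Chchd1 (1.07 ± 0.30, adjusted p = 0.0303) and Aurkaip1 (0.40 ± 0.12, adjusted p = 0.0383), both of the small subunit, with Dap3, the GTP-binding protein of that subunit, at 0.044. In the same comparison 1 of 24 assembly factors was higher, Malsu1 (0.60 ± 0.16, adjusted p = 0.0263), which keeps the subunits from joining early, and the median of the 24 was 0.067. Of 17 translation factors and messenger RNA handling proteins 1 was higher, Slirp (0.92 ± 0.16, adjusted p = 0.0036), which protects mitochondrial messenger RNAs, with a median of 0.084, and of 17 mitochondrial aminoacyl-tRNA synthetases 1 was higher, Rars2 (0.34 ± 0.094, adjusted p = 0.0278), with a median of -0.037. The counts of 1 gene in the assembly, translation factor and synthetase lists are near the share of all genes that were higher. Of 11 genes for transcription and copying of mitochondrial DNA none passed by limma, with 5 at an unadjusted p under 0.05, against 27.2% of all genes. Their values ran from Polg, the DNA polymerase of mitochondria, at -0.25 to Tefm, a transcription elongation factor, at 0.80. The lowest values of the other lists were -0.36 for Mettl17 among the assembly factors, -0.24 for Tufm among the translation factors and -0.26 for Mars2 among the synthetases, and these did not pass.

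The 13 measured genes of mitochondrial DNA had a median log2 fold change of -0.40 in SAMHD1 RIG-I DKO against SAMHD1 KO, and 1 was called, ND3, a subunit of complex I, which was higher (1.04 ± 0.32, adjusted p = 0.0434), with COX2, of complex IV, lowest at -0.55. In this comparison 5.62% of all genes tested were higher and 4.85% lower, so that 1 of 13 higher is near the share over all genes. Of 8 regulators of mitochondrial biogenesis Myc was lower (-0.94 ± 0.28, adjusted p = 0.0388), and Esrra, a nuclear receptor that drives mitochondrial genes, had the highest value at 0.43 and did not pass. In SAMHD1 MDA5 DKO against SAMHD1 KO none of these 7 lists had a called gene by limma, where 0.121% of all genes were called. At an unadjusted p under 0.05 there were 2 to 4 genes a list in the nuclear lists and 1 among the genes of mitochondrial DNA. The share over all genes was 23.8%. The genes of mitochondrial DNA ran from -0.48 for ND6 to 1.18 for ND3 in that comparison, with ATP8 in the middle at 0.076. In RIG-I KO against WT, Malsu1 (0.55), Fastkd2 (0.46), Slirp (0.56) and Hars2 (0.23) were higher and Oxa1l, the membrane insertase of mitochondrial products, was lower (-0.33 ± 0.088, adjusted p = 0.0358). There 1.25% of all genes tested were higher and 2.97% lower.

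The larger sets on either side of mitochondrial translation also had positive medians. Of all genes tested, 5.62% were higher in SAMHD1 RIG-I DKO and 0.0528% in SAMHD1 MDA5 DKO against SAMHD1 KO. In RIG-I KO against WT 1.25% were higher and 2.97% lower. Of 77 nuclear subunits of oxidative phosphorylation, 49 were higher in SAMHD1 RIG-I DKO against SAMHD1 KO (median log2 fold change 0.61), 0 in SAMHD1 MDA5 DKO against SAMHD1 KO (0.58) and 6 in RIG-I KO against WT (0.40, with 1 lower). Of 76 cytosolic ribosomal protein genes, 32, 0 and 0 were higher in these 3 comparisons, with medians of 0.62, 0.61 and 0.38. At an unadjusted p under 0.05 there were 71 of the 77 genes and 70 of the 76 in SAMHD1 MDA5 DKO against SAMHD1 KO (23.8% of all genes). In RIG-I KO against WT there were 19 of the 76, near the 24.5% of all genes. With the pair apart left out, 56, 54 and 23 oxidative phosphorylation genes were higher in the same 3 comparisons (medians 0.46, 0.43 and 0.22), with 1 lower in the first and 2 in the last. The cytosolic set then had 52, 41 and 1 higher genes (0.50, 0.46 and 0.11), with 2 lower in RIG-I KO against WT. Over all genes 2123, 534 and 2081 were then called in either direction. Whether the 78 genes differ from these sets was not tested.

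Exon length moved with the fold changes. Among other genes, the median log2 fold change in SAMHD1 RIG-I DKO against SAMHD1 KO was 0.40 for genes under 1 kb, 0.22 from 1 to 1.5 kb, 0.032 from 1.5 to 2.5 kb, -0.073 from 2.5 to 4 kb and -0.12 over 4 kb, and 21.5% of the shortest class were called higher. For the 78 genes the medians were 0.55 (n = 22), 0.35 (n = 23), 0.23 (n = 11), 0.44 (n = 11) and 0.34 (n = 11) in the same classes, above the other genes in each class, the 3 longest of which hold few of the genes. In SAMHD1 MDA5 DKO against SAMHD1 KO they were 0.49, 0.40, 0.18, 0.41 and 0.42, against 0.43, 0.24, 0.053, -0.057 and -0.13 for other genes. Those of the 78 genes under 1 kb had a median of 0.37 in RIG-I KO against WT, against 0.31 for other genes of that length, and of 0.25 in MDA5 KO against WT, against 0.24 for other genes. From the next class to the longest, the medians of the 78 genes were 0.27, 0.12, 0.32 and 0.28 in RIG-I KO against WT, where other genes had 0.19, 0.062, -0.030 and -0.080. In MDA5 KO against WT they were 0.18, 0.10, 0.18 and 0.15, where other genes had 0.12, 0.025, -0.030 and -0.031. When the pair apart was left out, the shortest of the 78 genes had medians of 0.42 in SAMHD1 RIG-I DKO and 0.41 in SAMHD1 MDA5 DKO against SAMHD1 KO, with 0.35 and 0.34 for other genes, and the longest 0.31 and 0.33, with -0.077 and -0.087 for other genes. Against WT, the shortest then had 0.20 in RIG-I KO and 0.13 in MDA5 KO, with 0.17 and 0.087 for other genes. The classes from 2.5 to 4 kb and over 4 kb hold 11 of the 78 genes each, and not all of these were called. Those called in SAMHD1 RIG-I DKO against SAMHD1 KO include Mrps14, Mrps16, Mrps17, Mrpl1, Mrpl11, Mrpl19, Mrpl48, Mrpl57, Mrpl58 and Mrpl9. The part of length in the results was not tested.

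**Figure D5:**
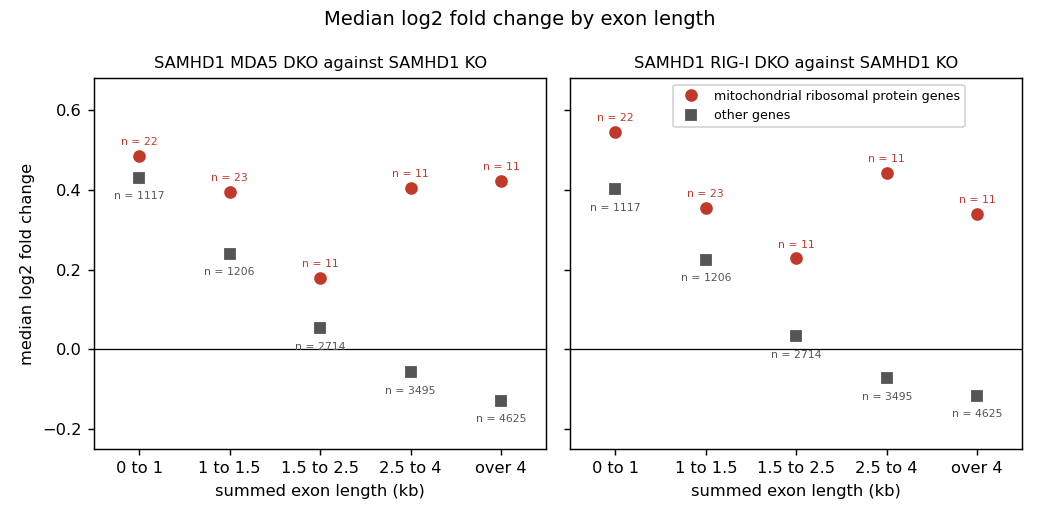
Median log2 fold change by summed exon length for the 78 genes (circles) and all other tested genes (squares) in SAMHD1 MDA5 DKO against SAMHD1 KO (left) and SAMHD1 RIG-I DKO against SAMHD1 KO (right), with the number of genes at each point. Other genes go down from 0.43 and 0.40 in the shortest class to -0.13 and -0.12 in the longest, and the 78 genes lie above them in every class.

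Markers of other cells differed in RIG-I-deficient libraries, and mast cell markers also differed between SAMHD1 MDA5 DKO and SAMHD1 KO libraries. The summed counts of 10 B cell markers were 71.6 to 93.1 in SAMHD1 RIG-I DKO and 66.1 to 87.1 in RIG-I KO libraries, against 268 to 724 in SAMHD1 MDA5 DKO, 778 to 1595 in MDA5 KO, 346 to 4321 in SAMHD1 KO and 137 to 2420.5 in WT libraries, and 9 of the 10 were lower in both RIG-I comparisons. Pax5, Blk, Ebf1, Fcmr and Ighd were at 0 in at least 1 library. Of 8 mast cell markers 5 were measured, with sums of 1.19 to 15.3 in SAMHD1 RIG-I DKO, 0 to 16.7 in RIG-I KO, 44.7 to 71.4 in SAMHD1 MDA5 DKO, 79.0 to 203 in MDA5 KO, 111 to 1279.7 in SAMHD1 KO and 18.03 to 194 in WT libraries. The 3 measured T cell markers of 8 summed to 9.55 to 14.4 in SAMHD1 RIG-I DKO, against 22.2 to 68.8 in SAMHD1 KO libraries, and to 8.40 to 13.8 in RIG-I KO, against 20.03 to 111 in WT libraries. The 2 measured granulocyte markers of 8 summed to 67.2 to 78.8 in SAMHD1 RIG-I DKO, against 33.5 to 48.9 in SAMHD1 KO libraries, and to 58.4 to 73.1 in RIG-I KO, against 20.4 to 68.02 in WT libraries, and this last pair of groups overlapped. In SAMHD1 MDA5 DKO libraries the T cell sums were 35.0 to 81.8 and the granulocyte sums 38.7 to 59.3. In MDA5 KO libraries they were 15.7 to 97.6 and 37.4 to 71.9. All of these sums are small beside the macrophage markers. Summed counts of 15 proliferation markers were 6867, 6916, 7481 and 17681 in SAMHD1 KO libraries. They were 9851 to 13508 in SAMHD1 MDA5 DKO and 10522 to 13821 in SAMHD1 RIG-I DKO libraries. SAMHD1 KO overlapped these through library 4 alone. The proliferation sums were 8038 to 14860 in MDA5 KO, 8347 to 15038 in RIG-I KO and 6378 to 21487 in WT libraries. Their part in the results was not tested.

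The sum of 10 macrophage markers, most of it Lyz2, the lysozyme gene, also moved with the score. It was 1771580.0 to 2031987 in SAMHD1 MDA5 DKO, 1973754 to 2299457 in SAMHD1 RIG-I DKO and 1078754 to 1828737 in SAMHD1 KO libraries, and 1656696 to 2171917 in MDA5 KO, 2020359 to 2231772 in RIG-I KO and 1016739 to 2086134 in WT libraries. The lowest sums were those of WT library 3 and SAMHD1 KO library 2, the libraries with the lowest scores. Taken singly, the 10 markers had a median log2 fold change of -0.043 in SAMHD1 RIG-I DKO against SAMHD1 KO and of 0.027 in SAMHD1 MDA5 DKO against SAMHD1 KO. The part of these markers in the results on the 78 genes was not tested.

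In the authors' deposited table, with their own test and in the opposite direction (SAMHD1 KO minus double knockout), 30 of the 78 genes were negative at an adjusted p under 0.05 for SAMHD1 MDA5 DKO, where 4% of all genes were. In the authors' deposited table the same count was 42 for SAMHD1 RIG-I DKO (7.46% of all genes), with Mrps2 the 1 positive gene. The authors' deposited table lists 13 genes higher in RIG-I KO than in WT (2.76% of all genes), and 0 for MDA5 KO and 0 for SAMHD1 KO against WT. For SAMHD1 RIG-I DKO against WT it lists 24 higher and 1 lower (6.89 and 9.17% of all genes, median log2 fold change 0.30). For SAMHD1 MDA5 DKO against WT it lists 3 higher and 0 lower (0.686 and 1.07% of all genes, median 0.33). The comparisons of 2 genotypes above do not set a double knockout against WT.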

How the data were processed

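Total RNA of peritoneal macrophages was extracted with the RNeasy mini plus kit, per the labels. STAR, Salmon, DESeq2 and R 4.1.2 with GRCm38/mm10 are named in the submitters' processing notes, while the labels' protocols name Ensembl Gene 61 annotation, bedtools 2.16.2 and pBWA 0.5.9-r32-MPI-patch2. Which of these pipelines made the deposited values, like the strand setting of the counting, is not given in the labels. The per-library values deposited by the authors are variance-stabilized values on a log2 scale. The authors also deposited mean normalized counts per genotype (a signal scaled by size factors), log2 fold changes and adjusted p-values.

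The deposited log2 values were inverted to normalized counts from their floor, the lowest value, alone. The deposited group means served as a check, with a largest relative difference of 3.85e-14 from them. Dividing by the value of 1 read gave whole reads for 100% of values (tolerance 0.01). Log2(normalized count + 1) was fitted with limma 3.58.1 (trend and robust variance, statmod 1.5.0, R 4.3.3), with genotype as the factor and all 25 libraries, for 13252 genes with at least 10 normalized counts in at least 4 libraries (14 left out). Tests were two-sided, and p-values were adjusted by Benjamini-Hochberg over all genes tested, with calls at 0.05. Fold changes on this scale slightly understate those of low genes. The fit was tested on simulated data, drawn gene by gene with no outlying library and no shared movement of genes. The simulation therefore does not show how calls behave where these occur, as they do here. Gene positions and exon lengths are from GENCODE vM21 and promoters from RefSeq, both GRCm38. Descriptions used Python 3.11.15, numpy 2.4.6, pandas 2.3.3 and scipy 1.17.1.

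The columns give the genotype but no replicate number. Genes are named where they were called, were highest or lowest in a comparison, in level, in residual SD or in correlation, or are the S18 paralogs, Mrps36 or targeted genes. Mrps7, Mrpl15, Mrps16 and the genes of the other lists follow the same rule. The members and lists were chosen with earlier results of these data known. Alternatives were another pseudocount, no filter, the deposited log2 values, limma-voom with TMM scaling on the recovered reads, scaling to total reads, the compared genotypes alone, and fits without single libraries or pairs of them. The lowest value of any of the 78 genes in a library was 77.7 normalized counts, at a depth of at least 25886469 reads in listed genes.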

Additional observations from a re-analysis of the deposited data

Results flagged for a closer look

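In groups of 4 or 5 libraries, single values were marked where the gap to the nearest other library took more of the range than Dixon's critical value allows. Of 114 groups examined 9 had such a value, where chance marks about 1 in 20 groups.

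WT library 3 was low in 4 of them: its score was 8.9649, with the nearest WT library at 9.43, Mrpl21 had 311.59 normalized counts (nearest 446.36), Mrpl12, of the stalk that recruits translation factors, had 401.86 (nearest 777.29) and Mrps36 had 255.29 (nearest 357.84). In WT library 2, Mrpl37 had 689.14 counts, below the nearest at 770.28.

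The other values were high. Mrpl24 had 1692.7 counts in SAMHD1 RIG-I DKO library 2 (nearest 1468.7) and 1379.0 in SAMHD1 KO library 2 (nearest 1090.2). Mrpl12 had 1101.4 in SAMHD1 RIG-I DKO library 2 (nearest 914.64), and Mrpl14 had 885.0 in MDA5 KO library 1 (nearest 565.78).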

How the results depend on the processing

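No paired analysis was possible because the columns carry no replicate number. No called value changed sign under any alternative run, while the uncalled median of SAMHD1 KO against WT (-0.054) was 0.0295 without SAMHD1 KO library 2 and the score difference between the double knockouts (0.014) was -0.0416 with total scaling. The score differences between genotypes moved by less than the pooled SD between libraries (0.134) under every alternative. That bound is wide, since the SD includes WT library 3 and leaving out 1 library shifts a mean by only part of its deviation. Without the pair apart, the score differences of MDA5 KO and RIG-I KO from WT became smaller, as given with the score. Counts of called genes moved most, and the cause was not tested. The 2 genes called higher in SAMHD1 MDA5 DKO against SAMHD1 KO were 1 with a pseudocount of 4 (Mrpl21), 0 with voom, 0 with these genotypes fitted alone, 27 without WT library 3 and SAMHD1 KO library 2, 0 without the libraries of intermediate Samhd1, and 0 to 58 without 1 library. The 34 genes called higher in SAMHD1 RIG-I DKO against SAMHD1 KO were 20 with the genotypes alone, 7 without the libraries of intermediate Samhd1 and 3 to 51 without 1 library, and the 1 lower gene, Mrps2, was 0 in the first 2 of these and 0 to 1 in the last. Genes higher in RIG-I KO than in WT (2) were 28 when scaled to total reads, 0 with the genotypes alone, 11 without WT library 3 and SAMHD1 KO library 2, 12 without the libraries of intermediate Samhd1 and 0 to 20 without 1 library, and the median log2 fold change of all 78 genes there, 0.29, was 0.152 without the pair apart and 0.152 to 0.339 without 1 library. Between the double knockouts, Mrps2 made a count of 1 without WT library 3 and SAMHD1 KO library 2, and counts were 0 to 1 without 1 library. The F test (21) gave 47 genes when scaled to total reads, 35 without the pair apart and 7 to 43 without 1 library. The median interaction with MDA5 was 0.109 to 0.336 without 1 library. Scaling to total reads moved the median of all genes by at most 0.0672 in size (-0.0672, SAMHD1 MDA5 DKO against SAMHD1 KO). With 4 or 5 libraries a genotype, the SE of a single gene (median 0.14, log2) limits what can be called.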
